A study of Mus musculus with 25 samples.

Results

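The 10 Wnt ligand genes described here are Wnt2, Wnt2b, Wnt4, Wnt5a, Wnt5b, Wnt6, Wnt9a, Wnt10b, Wnt11 and Wnt16. They were taken as the rows of the deposited count table whose Ensembl gene ID carries one of these symbols, and all 10 were found among 35880 genes in the table. The mouse has 9 further Wnt ligand genes in the table, for 19 in all, and these are used for comparison only.

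The samples were 25 RNA-Seq libraries of embryonic mesenchyme, the connective tissue around a growing epithelium, from C57Bl/6JOlaHsd mice with no transgene or treatment named in the labels. Each of 5 tissues had 5 libraries. The E16.5 fat pad precursor (E16.5 FP) is the tissue into which the mammary gland later branches, and the E16.5 mammary mesenchyme (E16.5 MM) surrounded the mammary sprout. The E13.5 mammary mesenchyme (E13.5 MM) surrounded the bud, the E13.5 ventral skin mesenchyme (E13.5 VM) was cut away from the mammary region, and the E13.5 salivary mesenchyme (E13.5 SM) came from the salivary gland. Mammary tissue was taken from the anterior glands, and epithelium was removed with needles after enzyme digestion, so that some epithelial cells could remain. Each library pooled embryos of the same litter, the 5 libraries of a tissue came from fewer litters than libraries, and the labels and methods do not say which of them shared a litter. The p-values below treat these pools as separate samples and measure the spread between pools. The labels give female sex for E16.5 and no sex for E13.5, so stage and sex composition cannot be told apart wherever E16.5 is set against E13.5.

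Wnt proteins are secreted glycoproteins that carry a lipid, added by Porcn, and are taken to the cell surface by the carrier Wls. In the canonical branch they bind a Frizzled receptor together with Lrp5 or Lrp6, beta-catenin then enters the nucleus with TCF/LEF factors, and genes such as Axin2 are switched on. Wnt5a and Wnt11 are best known for signaling without beta-catenin, through receptors such as Ror2 and Ryk, which orient cells and their movements. In the embryonic mammary region, Wnt signals pass in both directions between the epithelium and the mesenchyme.

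Total counts per library ran from 20678150 to 34448304 with a median of 26370369. All of the 11 mesenchyme markers examined had counts in every tissue, with summed levels of 24077 to 28410 CPM (counts scaled to the same library total) in the E16.5 FP, 43946 to 49286 in the E16.5 MM, 17198 to 21774 in the E13.5 MM, 14616 to 19445 in the E13.5 VM and 13406 to 16173 in the E13.5 SM. Whether single mesenchyme markers moved in both directions depended on the comparison. In E16.5 FP against E13.5 MM, 3 of the 11 were called higher and 4 lower by the thresholds given below. Of all genes, 14.3% were called higher and 11.2% lower there. The median log2 fold change of the 11 was -0.04. Twist2 and Pdgfra were among those lower. Twist2, a mesenchymal transcription factor, averaged 541 ± 119 normalized counts in the E16.5 FP and 4543 ± 790 in the E13.5 MM, and Pdgfra, a growth factor receptor of mesenchyme, 9186 ± 615 and 24892 ± 2282 (SD, n = 5 each), with log2 fold changes of -3.07 (SE 0.14, edgeR adjusted p = 2.84e-15) and -1.44 (SE 0.104, edgeR adjusted p = 1.32e-11), in the same direction as Wnt5a and Wnt11. In E16.5 FP against E16.5 MM, 9 of the 11 were called lower and 0 higher, beside 7.34% and 6.78% of all genes. Their median log2 fold change there was -1.18, and that of the 10 ligands was -0.59. Other cell types left a signal too. The 10 skeletal muscle markers summed to 2072 to 20495 CPM in the E16.5 FP, 765 to 3343 in the E16.5 MM and at most 605 in the E13.5 tissues. The 7 adipocyte precursor markers summed to 1123 to 1916 CPM in the E16.5 FP and to at most 426 elsewhere, with Adipoq at 0 in the E13.5 SM. The 8 peripheral neuron markers summed to 330 to 418 CPM in the E13.5 SM and to at most 54.2 elsewhere. The 6 leukocyte markers summed to 260 to 342 CPM in the E16.5 FP, 253 to 304 in the E16.5 MM, 132 to 159 in the E13.5 MM, 121 to 146 in the E13.5 VM and 35.6 to 46.2 in the E13.5 SM, and the 6 endothelial markers to 903 to 1131 CPM in the E16.5 FP and 375 to 444 in the E13.5 SM. The part of these cells, and of the shift in mesenchyme markers, in the Wnt ligand values was not tested.

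To ask how much Wnt ligand transcript each mesenchyme held, counts were scaled to the mean library total with TMM factors (normalized counts below), divided by the length of the gene's exons and summed over the 10 genes. On this per-kb scale the summed level was 727 ± 70.5 in the E16.5 FP, 1459 ± 108 in the E16.5 MM, 2219 ± 60.9 in the E13.5 MM, 1411 ± 129 in the E13.5 VM and 638 ± 79.7 in the E13.5 SM (SD, n = 5 each). The samples of E13.5 MM, from 2153 to 2296, lay above those of every other tissue, and the samples of E16.5 MM and E13.5 VM overlapped, as did those of E16.5 FP and E13.5 SM. The ligand with the highest mean share differed between tissues. Wnt4 held 35.4% ± 10.3 of the summed level in the E16.5 FP, Wnt5a held 41.4% ± 5.92 in the E16.5 MM and 43.4% ± 2.02 in the E13.5 MM, Wnt11 held 40.1% ± 3.43 in the E13.5 VM and Wnt2b held 28.7% ± 4.99 in the E13.5 SM (SD, n = 5 each). Wnt4 held 25.7% ± 3.05 in the E13.5 SM, so the first places there were close. In the E16.5 FP samples the share of Wnt4 ran from 22.7% to 46.5% and that of Wnt5a from 16.2% to 25.2%, so these overlapped too, and the Wnt4 shares carry the doubt about shared sequence described with that gene.

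**Figure D1:**
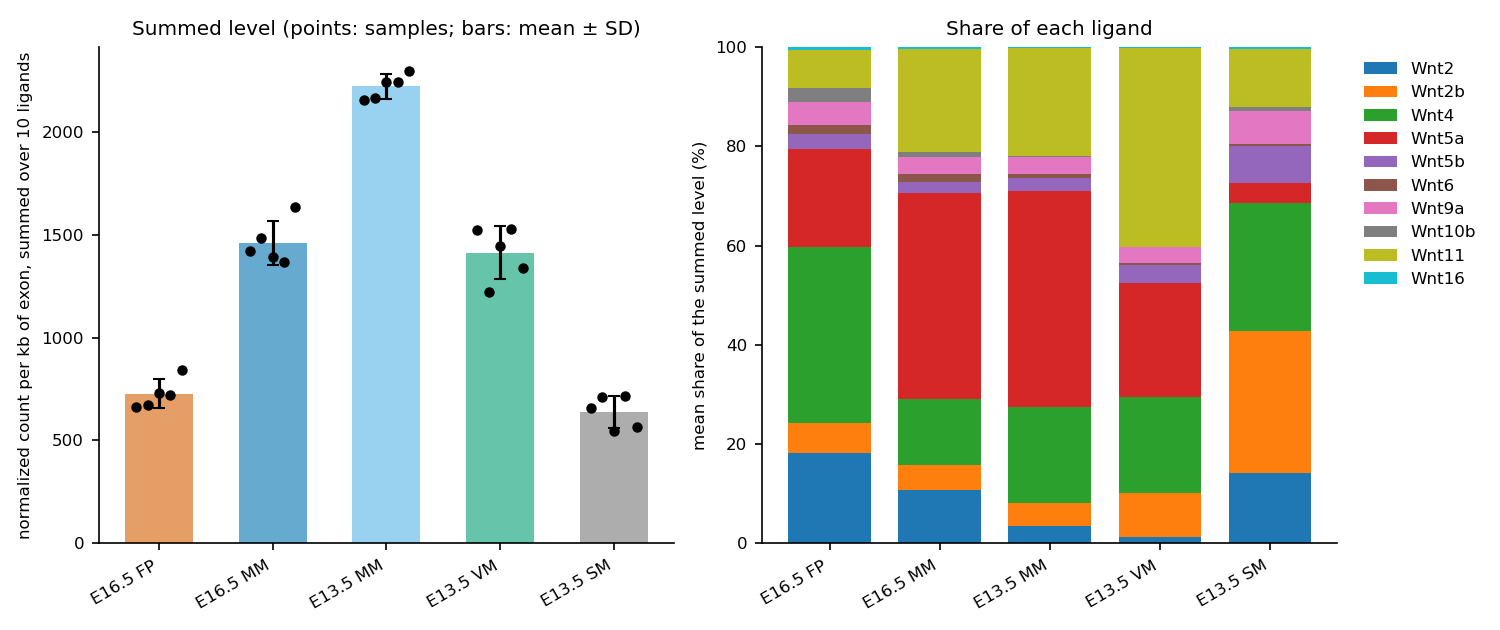
Left, the per-kb normalized count summed over the 10 Wnt ligands in each sample (points) with the mean and SD of each tissue; right, the mean share of each ligand in that sum, in percent. E13.5 MM has the tallest bar, at 2219 ± 60.9, and the Wnt5a segment takes 41.4% and 43.4% of the mammary mesenchyme at E16.5 and E13.5.

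To compare tissues gene by gene, edgeR's quasi-likelihood test was fitted over all 25 samples and 17657 genes, with Benjamini-Hochberg adjustment over all of them. Calls needed 3 things: a log2 fold change past 0.58 in either direction, an adjusted p under 0.05, and more than 50 normalized counts on average in whichever tissue was higher. All 10 Wnt ligands were tested. Wnt6 and Wnt16 had a mean above 50 in no tissue and could not be called. Comparisons that share E13.5 SM or E13.5 MM samples are not independent of each other and are given side by side.

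Against salivary mesenchyme, the mammary tissues held more Wnt5a and less Wnt2b. In E16.5 FP against E13.5 SM, 3 Wnt ligands were higher and 2 lower, with 39.5% of all genes tested called, 20.2% higher and 19.3% lower. In E16.5 MM against E13.5 SM, the higher ligands numbered 3 and the lower 2, with 35.1% of all genes called, 18.5% higher and 16.6% lower. In E13.5 MM against E13.5 SM, the higher ligands numbered 4 and the lower 1, with 30.1% of all genes called, 14.5% higher and 15.6% lower. The samples of the 2 tissues did not overlap for 5 of 10 ligands in the E16.5 FP against E13.5 SM, 5 of 10 in the E16.5 MM against E13.5 SM and 6 of 10 in the E13.5 MM against E13.5 SM, beside 52.1%, 51.5% and 46.7% of all genes tested. The shares that did not overlap were thus near those of all genes. The median log2 fold change of the 10 ligands was 0.54 in the E16.5 FP, 0.88 in the E16.5 MM and 0.61 in the E13.5 MM, each against E13.5 SM, and that of all genes was 0.03, -0.01 and 0.03.

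For E13.5 MM against E13.5 VM, 3 ligands were higher (Wnt2, Wnt5a and Wnt9a) and none was lower, where 6.45% of all genes were called, 3.79% higher and 2.66% lower. At an unadjusted p under 0.05, 7 of the 10 passed, not all in the same direction. Wnt2b was lower among them, at -0.27 (SE 0.114, edgeR unadjusted p = 0.0278). The share of all genes at that level was not computed. The DESeq2 Wald test likewise called no ligand lower. The samples did not overlap for 5 of 10 ligands, against 14.3% of all genes. The median log2 fold change was 0.73 for the ligands and -0.01 for all genes.

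Within the mammary region, most of the ligands called were lower in the later than in the earlier mammary mesenchyme. All those called were lower in the fat pad precursor than in mammary mesenchyme of the same stage. For E16.5 MM against E13.5 MM, Wnt2 was higher and 4 ligands (Wnt4, Wnt5a, Wnt5b and Wnt11) were lower, where 19.8% of all genes were called, 12.6% higher and 7.16% lower. For E16.5 FP against E13.5 MM, which differ in tissue as well as stage, Wnt2 and Wnt10b were higher and 6 ligands (Wnt2b, Wnt4, Wnt5a, Wnt5b, Wnt9a and Wnt11) were lower. There 25.5% of all genes were called, 14.3% higher and 11.2% lower. In E16.5 FP against E16.5 MM, none was higher and 4 (Wnt2b, Wnt5a, Wnt9a and Wnt11) were lower, where 14.1% of all genes were called, 6.78% higher and 7.34% lower. No ligand was called higher there by the DESeq2 Wald test either. At an unadjusted p under 0.05, 6 of the 10 passed, and the share of all genes at that level was not computed. The samples did not overlap for 7, 8 and 6 of 10 ligands in these comparisons, in the order given, beside 36.3%, 38.3% and 22.5% of all genes. The median log2 fold change of the ligands was -0.51, -0.95 and -0.59, and that of all genes was 0.01, 0.03 and 0.00.

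**Figure D2:**
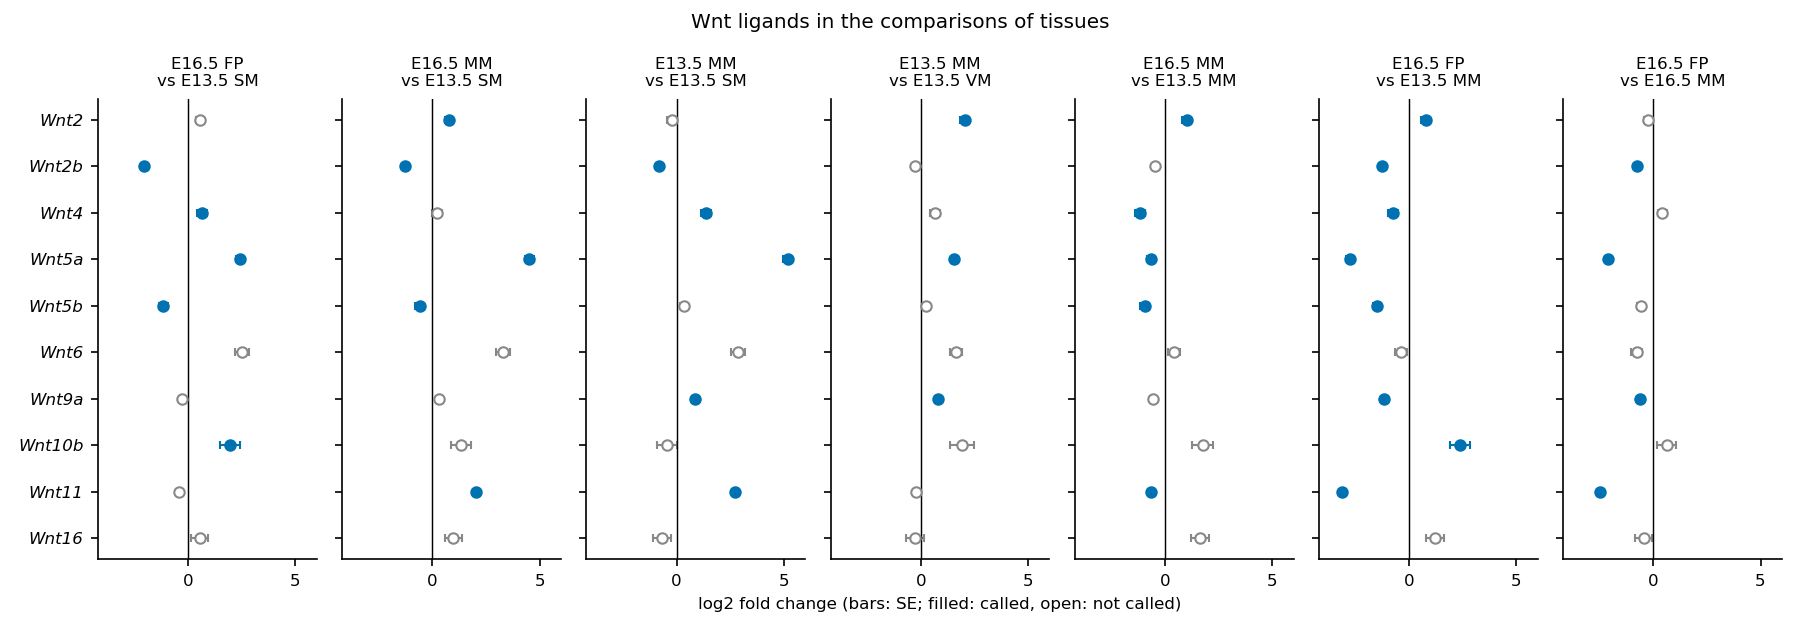
Log2 fold change (points, with the standard error as bars) of each Wnt ligand in the 7 comparisons of tissues, filled where the gene was called and open where it was not. Wnt5a lies to the right of 0 in all 3 panels against E13.5 SM, at 2.43, 4.52 and 5.19, and to the left in the 3 panels within the mammary region.

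Wnt5a (chr14:28504750-28527448, plus strand, GRCm38), which drives outgrowth of limbs and other embryonic parts and signals mainly without beta-catenin, had the widest spread between tissues of the ligands called. It had 1191, 1329, 930, 963 and 1162 normalized counts in the E16.5 FP, 4938, 5453, 4505, 3360 and 5455 in the E16.5 MM, 7376, 7354, 7075, 7638 and 8258 in the E13.5 MM, 2541, 2036, 2701, 2891 and 2491 in the E13.5 VM and 300, 284, 124, 156 and 169 in the E13.5 SM. No sample of any tissue overlapped with those of another, and every neighbour in the order E13.5 MM, E16.5 MM, E13.5 VM, E16.5 FP, E13.5 SM was called different. In E13.5 MM against E13.5 SM the log2 fold change was 5.19 (SE 0.21, edgeR adjusted p = 7.05e-16), which is 36.5-fold. In E16.5 MM against E13.5 SM it was 4.52 (SE 0.204, edgeR adjusted p = 3.6e-15), and in the E16.5 FP against E13.5 SM it was 2.43 (SE 0.19, edgeR adjusted p = 6.46e-11). The ventral skin mesenchyme of the same stage held less than the mammary mesenchyme. For E13.5 MM against E13.5 VM the log2 fold change was 1.57 (SE 0.177, edgeR adjusted p = 5.12e-07). At E16.5 the fat pad precursor was far below the mammary mesenchyme, with a log2 fold change of -2.09 in the E16.5 FP against E16.5 MM (SE 0.181, edgeR adjusted p = 2.84e-09). The stage difference was smaller, at -0.67 in the E16.5 MM against E13.5 MM (SE 0.173, edgeR adjusted p = 0.00271), and was no longer called without E16.5 MM replicate 4 (-0.55). In these bulk samples, fewer cells of a type and less RNA per cell cannot be told apart. Of the 31-base words of Wnt5a, 4.18% also occur in other genes, chiefly in the antisense gene Gm2670, which lies over it.

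Wnt11 (chr7:98835112-98855195, plus strand), which guides cell movements in the early embryo and branching of the ureteric bud, was high in mammary and skin mesenchyme and low in the fat pad precursor and the salivary mesenchyme. It had 202, 272, 170, 227 and 269 normalized counts in the E16.5 FP, 985, 1228, 1295, 1179 and 1598 in the E16.5 MM, 2018, 2033, 1505, 2301 and 2152 in the E13.5 MM, 2254, 1885, 2607, 2619 and 2361 in the E13.5 VM and 255, 373, 268, 287 and 338 in the E13.5 SM. The samples of E16.5 FP overlapped with those of E13.5 SM only, both far below the other 3 tissues. The samples of E13.5 MM overlapped with those of E13.5 VM and with those of E16.5 MM. In E16.5 MM against E13.5 MM the log2 fold change was -0.67 (SE 0.138, edgeR adjusted p = 0.000273). In E13.5 MM against E13.5 SM the log2 fold change was 2.72 (SE 0.148, edgeR adjusted p = 5.36e-14), and in the E16.5 MM against E13.5 SM it was 2.05 (SE 0.145, edgeR adjusted p = 6.04e-12). For E13.5 MM against E13.5 VM it was -0.23 (SE 0.136, edgeR adjusted p = 0.306) and was not called. Of the 10 ligands Wnt11 had the largest drop in the fat pad precursor, with -3.13 in the E16.5 FP against E13.5 MM (SE 0.152, edgeR adjusted p = 8.66e-15) and -2.46 in the E16.5 FP against E16.5 MM (SE 0.149, edgeR adjusted p = 2.21e-12). A processed pseudogene on the other strand, Gm8398, shares 8.02% of the 31-base words of Wnt11, and its mean was 0.423, 0.712, 0, 0.603 and 0 normalized counts in the E16.5 FP, E16.5 MM, E13.5 MM, E13.5 VM and E13.5 SM.

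Wnt5b (chr6:119432531-119544347, minus strand), the close relative of Wnt5a with a role in cartilage growth, was lowest in the fat pad precursor. It had 38.9, 62.5, 47.0, 65.3 and 74.0 normalized counts in the E16.5 FP, 84.8, 88.7, 85.3, 79.8 and 88.6 in the E16.5 MM, 144, 152, 169, 192 and 163 in the E13.5 MM, 124, 166, 142, 136 and 130 in the E13.5 VM and 210, 111, 108, 137 and 77.5 in the E13.5 SM. All samples of E16.5 FP lay below those of the other tissues, and the 3 tissues of E13.5 overlapped. For E16.5 FP against E13.5 MM the log2 fold change was -1.50 (SE 0.201, edgeR adjusted p = 6.19e-07), and in the E16.5 MM against E13.5 MM it was -0.94 (SE 0.196, edgeR adjusted p = 0.000333). In E16.5 FP against E13.5 SM it was -1.16 (SE 0.201, edgeR adjusted p = 1.56e-05). The value in the E16.5 MM against E13.5 SM, -0.59 (SE 0.197, edgeR adjusted p = 0.0104), lay just past the fold threshold and rested on the highest salivary sample, since it was -0.35 without E13.5 SM replicate 1. That call was also lost without E16.5 MM replicate 4 (-0.54) or E13.5 SM replicate 4 (-0.57) and with DESeq2 size factors (-0.55). The DESeq2 Wald test (-0.55) and the library size of all counts (-0.58) lost the call too. With only the 2 tissues compared, the value was -0.51 and missed the p threshold as well (edgeR adjusted p = 0.0635). For E16.5 FP against E16.5 MM it was -0.57 (SE 0.202, edgeR adjusted p = 0.0316), just short of that threshold. Wnt5b overlaps Fbxl14 on the other strand, which had means of 668 to 975 normalized counts, and whether the counting used strand is not stated. In GENCODE M21 the transcripts of Wnt5b share no 31-base word, on either strand, with those of Fbxl14 or any other gene.

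The upstream 250 bases of Wnt11, Wnt5b and Wnt10b are shown because the first 2 fell and the last rose in the E16.5 FP against E13.5 MM. The window shown for each is that of the RefSeq start that is also the gene start in GENCODE. RefSeq has further starts for Wnt11 and Wnt5b, whose windows are not shown. They come from RefSeq on GRCm38.p6, run 5′ to 3′ on the gene's own strand and end at the base before the start. Capitals mark the TCF/LEF motif CTTTGAT, the TATA box TATAAA and the GC box GGGCGG, searched on both strands.
Wnt11 (chr7:98834862-98835111, plus strand): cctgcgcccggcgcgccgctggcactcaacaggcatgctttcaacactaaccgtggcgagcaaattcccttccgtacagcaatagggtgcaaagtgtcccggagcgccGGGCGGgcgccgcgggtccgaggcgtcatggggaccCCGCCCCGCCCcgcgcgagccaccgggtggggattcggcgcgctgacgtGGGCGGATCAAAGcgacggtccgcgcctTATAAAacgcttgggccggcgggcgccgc
Wnt5b (chr6:119544348-119544597, minus strand): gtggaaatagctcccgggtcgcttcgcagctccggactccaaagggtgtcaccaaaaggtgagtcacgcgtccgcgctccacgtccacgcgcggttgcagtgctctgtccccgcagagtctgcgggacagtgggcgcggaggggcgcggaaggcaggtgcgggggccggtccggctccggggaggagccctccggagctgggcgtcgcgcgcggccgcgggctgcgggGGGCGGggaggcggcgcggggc
Wnt10b (chr15:98778151-98778400, minus strand): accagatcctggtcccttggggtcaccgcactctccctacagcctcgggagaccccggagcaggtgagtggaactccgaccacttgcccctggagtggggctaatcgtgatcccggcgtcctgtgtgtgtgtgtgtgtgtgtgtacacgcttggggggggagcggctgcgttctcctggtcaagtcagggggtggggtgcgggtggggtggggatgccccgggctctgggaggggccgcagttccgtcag
The Wnt11 window held the CTTTGAT motif on the opposite strand, 51 bases before the start and right behind a GC box. Its TATA box lay 29 bases before the start, and of its 4 GC boxes a pair on the opposite strand overlapped by their end base. The Wnt5b window held 1 GGGCGG, and the Wnt10b window held none of these motifs. Over 32851 RefSeq windows of the same length, 3.21% held CTTTGAT, 12.4% TATAAA and 32.7% GGGCGG, and 4.46% held the other TCF/LEF form, CTTTGAA, which no Wnt ligand window had. Of the 10 ligands, 9 had at least 1 window, and Wnt5a had none in the table. Of their 12 windows, 2 held CTTTGAT (Wnt11 and an internal start of Wnt5b), 1 held TATAAA and 8 held GGGCGG. G and C made up 70.8% of the Wnt11 window, 75.2% of the Wnt5b window and 66.8% of the Wnt10b window, against a median of 52.4% over all windows. A match describes the letters only.

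Wnt4 (chr4:137277489-137299726, plus strand), which sets off tubule formation in the kidney and side branching in the adult mammary gland, was present in every tissue. It had 740, 643, 1294, 1407 and 1385 normalized counts in the E16.5 FP, 827, 648, 816, 1040 and 726 in the E16.5 MM, 1540, 1671, 2623, 1535 and 1670 in the E13.5 MM, 1756, 1034, 983, 1033 and 944 in the E13.5 VM and 668, 875, 534, 857 and 545 in the E13.5 SM. All E13.5 MM samples lay above those of E16.5 FP, E16.5 MM and E13.5 SM, while a single E13.5 VM sample, replicate 1, reached into the E13.5 MM range. In E13.5 MM against E13.5 SM the log2 fold change was 1.38 (SE 0.233, edgeR adjusted p = 2.15e-05), and in the E16.5 MM against E13.5 MM it was -1.16 (SE 0.232, edgeR adjusted p = 0.000267). For E13.5 MM against E13.5 VM it was 0.65 (SE 0.229, edgeR adjusted p = 0.0564) and was not called, but without E13.5 VM replicate 1 it was 0.87 (edgeR adjusted p = 0.00751). In E16.5 FP against E13.5 MM it was -0.73 (SE 0.229, edgeR adjusted p = 0.0106), which was lost without E13.5 MM replicate 3 (-0.56). For E16.5 FP against E13.5 SM it was 0.65 (SE 0.231, edgeR adjusted p = 0.0153), and this call was lost without E16.5 FP replicate 4 (0.54), E16.5 FP replicate 5 (0.56) or E13.5 SM replicate 5 (0.57).

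The Wnt4 counts moved with those of unrelated genes. Of its 4107 distinct 31-base words, 6.62% also occur in transcripts of other genes, 2647 of them in all. Over the 25 samples, the genes whose log2 CPM was most like that of Wnt4 were Vmn2r100 (r = 0.886), a pheromone receptor gene, Klhl33 (r = 0.859) and the processed pseudogene Gm13092 (r = 0.835). Wnt4 shared 23 of the 31-base words with Vmn2r100, 41 with Klhl33 and none with Gm13092. The sample with the most Wnt4 among E13.5 MM, replicate 3, also had the most Vmn2r100 (498 normalized counts, against 214 to 328 in the other 4), the most Klhl33 (581 against 258 to 313) and the most Gm13092 (993 against 492 to 622). E13.5 VM replicate 1 stood out likewise, with 345 normalized counts of Vmn2r100 against 135 to 196 in the other 4. In E16.5 FP, replicates 1 and 2 were low and replicates 3, 4 and 5 high for Wnt4 and for each of these genes. The part of reads shared through repeated sequence in the Wnt4 counts was not tested.

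**Figure D3:**
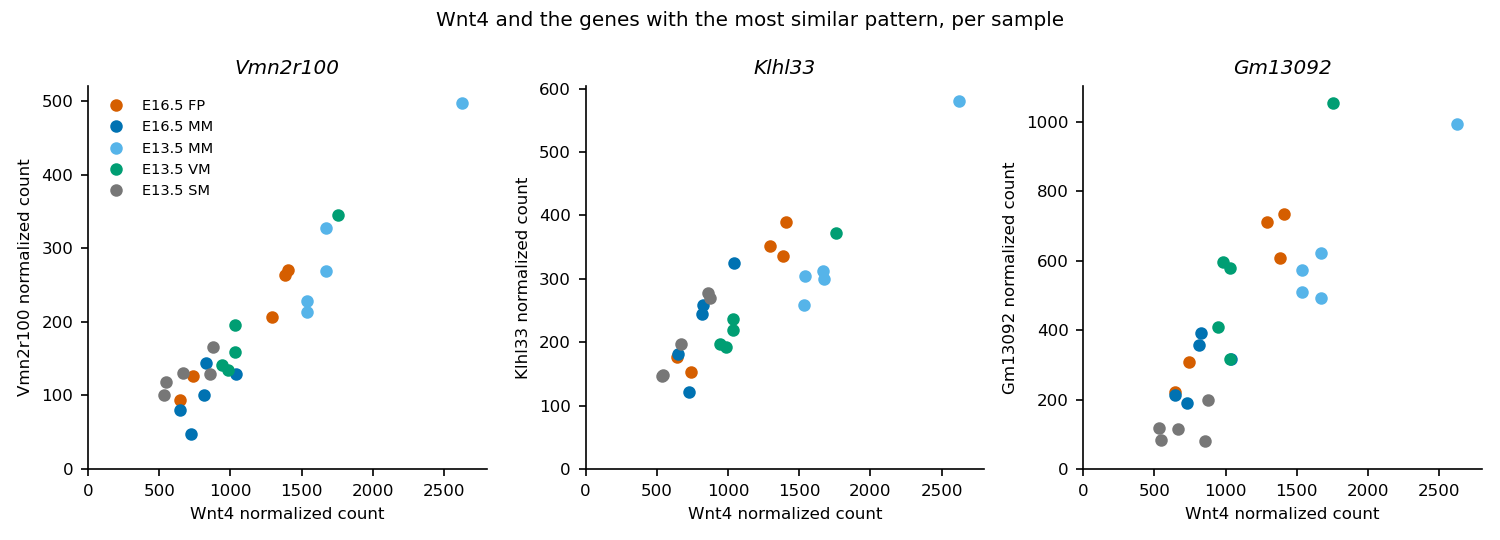
Normalized counts of Wnt4 (x axis) and of Vmn2r100, Klhl33 and Gm13092 (y axes) in each of the 25 samples, coloured by tissue. The E13.5 MM sample at 2623 on the x axis is also the highest of its tissue in all 3 panels, at 498, 581 and 993.

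Wnt2 (chr6:17988940-18030585, minus strand), a canonical ligand that specifies the lung together with Wnt2b in the mouse, had the largest fold change of the 10 ligands in E13.5 MM against E13.5 VM. It had 347, 300, 326, 154 and 360 normalized counts in the E16.5 FP, 359, 336, 285, 425 and 352 in the E16.5 MM, 180, 162, 205, 172 and 154 in the E13.5 MM, 34.4, 57.1, 41.6, 40.3 and 35.7 in the E13.5 VM and 252, 268, 133, 176 and 191 in the E13.5 SM. All samples of E13.5 VM lay far below those of the other tissues, and all samples of E16.5 MM lay above those of the 3 tissues of E13.5. The log2 fold change in the E13.5 MM against E13.5 VM was 2.06 (SE 0.213, edgeR adjusted p = 7.81e-08), about 4.16-fold. In contrast with the other ligands called there, Wnt2 was higher in the E16.5 MM than in the E13.5 MM, by 1.01 (SE 0.195, edgeR adjusted p = 0.000133). It was also higher by 0.77 in the E16.5 FP against E13.5 MM (SE 0.195, edgeR adjusted p = 0.00167), tissues that differ in kind as well as stage. For E16.5 MM against E13.5 SM it was higher by 0.78 (SE 0.194, edgeR adjusted p = 0.000982), whereas in the E13.5 MM against E13.5 SM the value was -0.23 (SE 0.195, edgeR adjusted p = 0.321). In E16.5 FP against E13.5 SM it was 0.54 (SE 0.194, edgeR adjusted p = 0.0149), short of the fold threshold, and passed it at 0.72 without the low E16.5 FP replicate 4, at 0.63 without E13.5 SM replicate 1 and at 0.66 without E13.5 SM replicate 2.

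Wnt2b (chr3:104945272-104961921, minus strand), the paralog of Wnt2, had its highest level in the salivary mesenchyme and its lowest in the fat pad precursor. It had 164, 237, 180, 161 and 170 normalized counts in the E16.5 FP, 320, 320, 273, 303 and 343 in the E16.5 MM, 469, 408, 404, 448 and 422 in the E13.5 MM, 486, 517, 468, 636 and 477 in the E13.5 VM and 703, 652, 768, 985 and 708 in the E13.5 SM. The samples of E13.5 SM lay above all others and those of E16.5 FP below all others, and among neighbours in the order only E13.5 MM and E13.5 VM overlapped. The log2 fold change against E13.5 SM was -2.06 in the E16.5 FP (SE 0.119, edgeR adjusted p = 7.79e-14), -1.29 in the E16.5 MM (SE 0.116, edgeR adjusted p = 4.23e-10) and -0.83 in the E13.5 MM (SE 0.114, edgeR adjusted p = 7.41e-07). Within E16.5 it was -0.77 in the E16.5 FP against E16.5 MM (SE 0.119, edgeR adjusted p = 1.17e-05). In E16.5 MM against E13.5 MM it was -0.46 (SE 0.115, edgeR adjusted p = 0.00173), short of the fold threshold though the samples did not overlap.

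Wnt9a (chr11:59306928-59333552, plus strand), which takes part in joint formation, was highest in the early mammary mesenchyme. It had 112, 124, 81.9, 135 and 110 normalized counts in the E16.5 FP, 158, 150, 187, 196 and 176 in the E16.5 MM, 285, 235, 272, 225 and 257 in the E13.5 MM, 156, 146, 137, 154 and 139 in the E13.5 VM and 106, 157, 145, 153 and 134 in the E13.5 SM. The E13.5 MM samples lay above those of every other tissue, and the remaining tissues overlapped in part. In E13.5 MM the log2 fold change was 0.80 against E13.5 VM (SE 0.127, edgeR adjusted p = 4.73e-05) and 0.87 against E13.5 SM (SE 0.127, edgeR adjusted p = 1.8e-06). In E16.5 FP it was -1.17 against E13.5 MM (SE 0.129, edgeR adjusted p = 2.52e-08) and -0.62 against E16.5 MM (SE 0.129, edgeR adjusted p = 0.000434). The last call was lost without E16.5 FP replicate 3 (-0.53). For E16.5 MM against E13.5 MM it was -0.55 (SE 0.127, edgeR adjusted p = 0.000826), short of the fold threshold.

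Wnt10b (chr15:98770712-98778150, minus strand), a canonical ligand that marks the mammary line and placodes in the mouse and restrains fat cell formation, was higher in the fat pad precursor than in the E13.5 tissues. It had 97.8, 50.6, 63.1, 64.2 and 68.7 normalized counts in the E16.5 FP, 51.6, 27.6, 10.8, 67.0 and 66.5 in the E16.5 MM, 10.2, 35.4, 9.75, 5.48 and 5.30 in the E13.5 MM, 3.23, 1.04, 3.14, 5.25 and 3.75 in the E13.5 VM and 15.2, 23.9, 21.2, 19.8 and 8.94 in the E13.5 SM. All E16.5 FP samples lay above all E13.5 samples, while those of E16.5 MM reached from the E13.5 range into that of E16.5 FP. The log2 fold change was 2.38 in the E16.5 FP against E13.5 MM (SE 0.476, edgeR adjusted p = 0.000151) and 1.94 in the E16.5 FP against E13.5 SM (SE 0.464, edgeR adjusted p = 0.000647). Both calls were lost where the mean over both tissues had to exceed 50. In E16.5 MM against E13.5 MM it was 1.76 (SE 0.474, edgeR adjusted p = 0.00344), with a mean of 44.7 normalized counts in the E16.5 MM that could not be called, and without E16.5 MM replicate 3 it was called at 2.02.

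Epithelial marker counts moved with Wnt10b in some of the mammary samples. The 14 epithelial markers all had counts in each tissue and summed to 57.5, 15.6, 13.2, 14.1 and 11.3 CPM in the E16.5 FP, 156, 40.4, 20.9, 80.5 and 124 in the E16.5 MM, 12.4, 18.9, 12, 9.77 and 6.66 in the E13.5 MM, 5.03 to 8.27 in the E13.5 VM and 20.9 to 29.0 in the E13.5 SM. E16.5 MM replicates 2 and 3 had the fewest epithelial marker counts and the least Wnt10b of that tissue, E16.5 FP replicate 1 had the most of both in its tissue, and so had E13.5 MM replicate 2. The order was not the same throughout: E16.5 MM replicate 1 had the most marker counts, 156 CPM, with 51.6 normalized counts of Wnt10b, below replicates 4 and 5. The other 4 E16.5 FP samples held 50.6 to 68.7 normalized counts of Wnt10b at epithelial sums of 11.3 to 15.6 CPM, close to those of E13.5 MM. The part of epithelial RNA in the Wnt10b values was not tested.

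**Figure D4:**
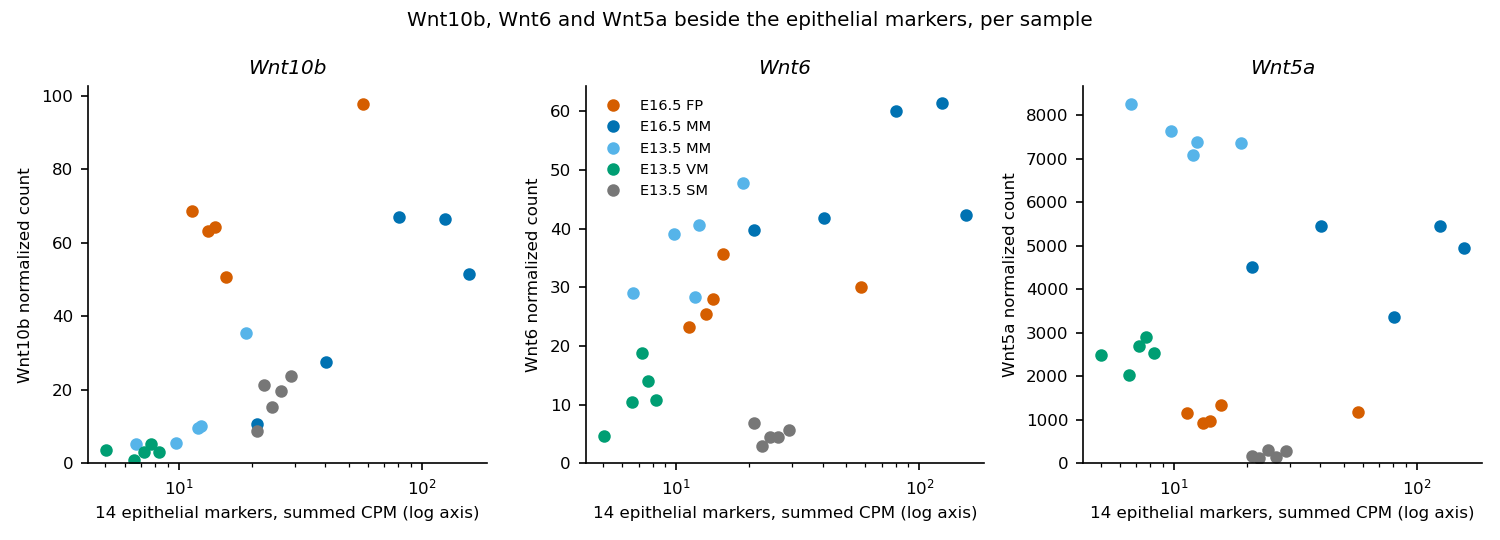
Normalized counts of Wnt10b, Wnt6 and Wnt5a (y axes) against the summed CPM of 14 epithelial markers (x axis, log scale) in each of the 25 samples, coloured by tissue. In E16.5 MM the sample with 20.9 CPM of markers has 10.8 normalized counts of Wnt10b the sample with 124 CPM has 66.5 and the sample with 156 CPM has 51.6, while 4 E16.5 FP samples sit at 50.6 to 68.7 with at most 15.6 CPM.

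Wnt6 (chr1:74771892-74785322, plus strand) and Wnt16 (chr6:22288227-22298522, plus strand) stayed under a mean of 50 normalized counts in every tissue. Wnt6, which is known from surface ectoderm and kidney, had 30, 35.7, 25.5, 28.0 and 23.2 normalized counts in the E16.5 FP, 42.4, 41.9, 39.7, 60.1 and 61.4 in the E16.5 MM, 40.7, 47.8, 28.3, 39.1 and 29.1 in the E13.5 MM, 10.8, 10.4, 18.8, 14 and 4.69 in the E13.5 VM and 4.48, 5.75, 2.89, 4.50 and 6.96 in the E13.5 SM. Every sample of the mammary tissues and the fat pad precursor lay above every E13.5 VM and E13.5 SM sample. The log2 fold change was 2.88 in the E13.5 MM against E13.5 SM (SE 0.319, edgeR adjusted p = 2.17e-08) and 1.64 in the E13.5 MM against E13.5 VM (SE 0.291, edgeR adjusted p = 0.000197), not called for the count threshold alone. The epithelial markers summed to 6.66 to 18.9 CPM in these E13.5 MM samples and to 20.9 to 29.0 CPM in the E13.5 SM, where Wnt6 was lowest. Single markers differed in direction: Epcam averaged 53.5 normalized counts in the E13.5 MM and 456 in the E13.5 SM, whereas the skin keratin Krt14 averaged 40.5 and 2.99 and Krt5 15.5 and 0.558 in these tissues, the same direction as Wnt6. The part of epithelial RNA in the Wnt6 values was not tested. Wnt16, which acts in cortical bone, averaged 17.6 ± 5.32 normalized counts in the E16.5 FP, 24 ± 5.41 in the E16.5 MM, 7.62 ± 3.51 in the E13.5 MM, 9.22 ± 5.39 in the E13.5 VM and 12.1 ± 4.25 in the E13.5 SM (SD, n = 5 each). All its E16.5 samples lay above those of E13.5 MM, with log2 fold changes against that tissue of 1.20 in the E16.5 FP (SE 0.417, edgeR adjusted p = 0.0175) and 1.65 in the E16.5 MM (SE 0.414, edgeR adjusted p = 0.00193), not called for the count threshold.

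**Figure D5:**
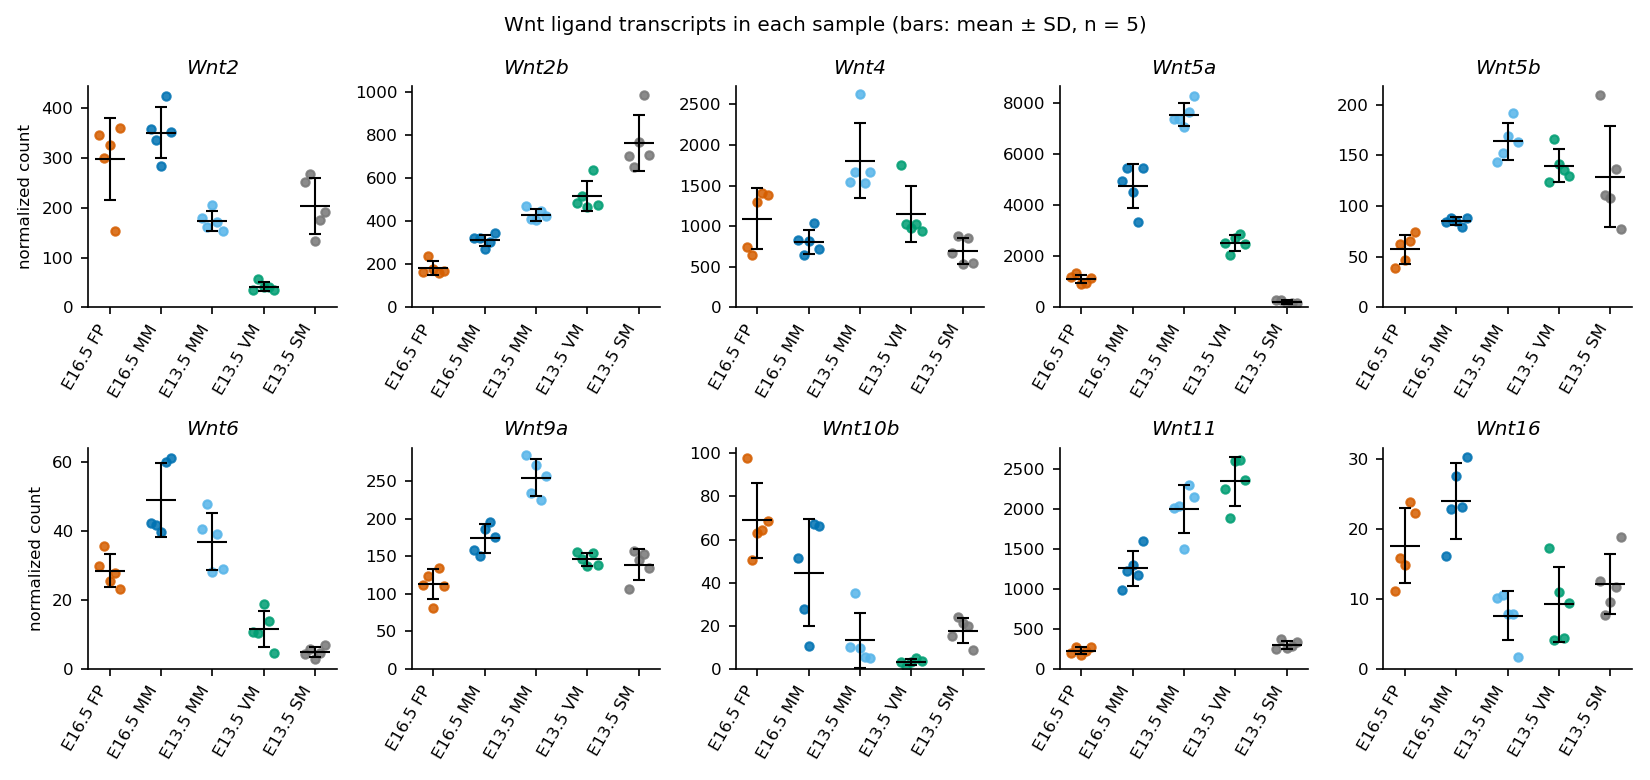
Normalized count of each Wnt ligand in every sample (points), with the mean and SD of the 5 samples of each tissue as bars; every axis starts at 0. Wnt5a is highest in the E13.5 MM (7075 to 8258) and lowest in the E13.5 SM (124 to 300). Wnt2b is highest in the E13.5 SM and lowest in the E16.5 FP, and Wnt2 is lowest in the E13.5 VM (34.4 to 57.1).

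The order of tissues was less sure for ligands other than Wnt5a, since many neighbours in it were not called different. Apart from Wnt5a, no ligand had all 5 tissues separated by called differences. The remaining pairs with ventral skin mesenchyme were tested in the same fit, where 27.4% of all genes were called for E16.5 FP against E13.5 VM, 23.3% for E16.5 MM against E13.5 VM and 30.2% for E13.5 VM against E13.5 SM. For Wnt4, Wnt9a and Wnt10b no pair of neighbours was called different, and calls were made only between tissues further apart in the order. Wnt6 and Wnt16 had no call between any tissues because of the count threshold. Not being called does not mean that levels were alike, as some neighbours missed only the count or fold threshold. Wnt6 had a log2 fold change of 1.26 in the E16.5 FP against E13.5 VM (edgeR adjusted p = 0.000682), and Wnt2b had -0.56 in the E13.5 VM against E13.5 SM (edgeR adjusted p = 0.000126), both with no overlap of samples. The neighbours called different were E13.5 MM and E13.5 VM for Wnt2, E16.5 FP and E16.5 MM for Wnt2b and, only by the unstable call given above, E16.5 MM and E13.5 SM for Wnt5b. For Wnt11 calls fell between E16.5 MM and E13.5 MM and again between E16.5 MM and E13.5 SM.

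Several of these genes lie beside another Wnt gene. Wnt6 and Wnt10a are 6193 bases apart on chromosome 1, Wnt9a and Wnt3a 16175 bases on chromosome 11, and Wnt10b and Wnt1 11706 bases on chromosome 15 (GRCm38), with no protein-coding gene between. The partners were scarce in these tissues. Wnt10a averaged 5.84 ± 5.04 normalized counts in the E16.5 FP, 22.0 ± 9.85 in the E16.5 MM, 6.92 ± 1.97 in the E13.5 MM, 11.6 ± 2.61 in the E13.5 VM and 1.15 ± 1.27 in the E13.5 SM (SD, n = 5 each), and the means of Wnt1 and Wnt3a were at most 4.98. Of the 9 other ligands, 2 passed the expression filter (Wnt7b and Wnt10a), and neither was called, since their highest mean was 25 normalized counts, for Wnt7b in the E16.5 MM.

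Wls and Porcn, which ready Wnt proteins for secretion, were lower in the fat pad precursor than in mammary mesenchyme of either stage. Of 9 genes for secretion tested, 1 was higher and 2 were lower in the E16.5 FP against E13.5 MM, or 33.3% called beside 25.5% of all genes. Where E13.5 MM was set against E13.5 SM, 1 rose and none was lower, or 11.1% beside 30.1% of all genes. Wls, the carrier, had 2770 ± 277 normalized counts in the E16.5 FP, 5737 ± 530 in the E16.5 MM, 5632 ± 615 in the E13.5 MM and 2435 ± 256 in the E13.5 SM (SD, n = 5 each). Its log2 fold change was -1.02 in the E16.5 FP against E13.5 MM (SE 0.0983, edgeR adjusted p = 2.38e-09) and 1.21 in the E13.5 MM against E13.5 SM (SE 0.0986, edgeR adjusted p = 9.5e-11). In E16.5 FP against E13.5 SM, Wls was not called, at 0.19 (SE 0.0976, edgeR adjusted p = 0.0911). Porcn, which adds the lipid, averaged 50.5 ± 11.6 normalized counts in the E16.5 FP and 95.0 ± 13.2 in the E13.5 MM (SD, n = 5 each), with a log2 fold change of -0.91 (SE 0.169, edgeR adjusted p = 5.62e-05). In E13.5 MM against E13.5 SM, where Porcn averaged 141 ± 27.6, it was -0.57 (SE 0.162, edgeR adjusted p = 0.00374). That was not called and was opposite in direction to Wls.

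Receptors changed in both directions. Of 12 Frizzled and co-receptor genes tested, 4 rose and 3 fell in the E16.5 FP against E13.5 MM, where 14.3% of all genes rose and 11.2% fell. In the E13.5 MM, 2 rose and 5 fell against E13.5 SM, where 14.5% of all genes rose and 15.6% fell. Fzd10 averaged 1902 ± 250 normalized counts in the E13.5 MM and 186 ± 6.29 in the E13.5 SM (SD, n = 5 each), and Fzd7 averaged 1497 ± 65.3 and 6663 ± 485 in the same tissues. Of 16 genes for receptors and planar polarity that act without beta-catenin, 5 rose and 5 fell in the E13.5 MM against E13.5 SM, and 1 rose and 8 fell in the E16.5 FP against E13.5 MM, beside the same shares of all genes. Ror1, a receptor of Wnt5a, had 832 ± 62.6 normalized counts in the E13.5 MM and 4995 ± 356 in the E13.5 SM (SD, n = 5 each), opposite in direction to Wnt5a itself, with a log2 fold change of -2.59 (SE 0.156, edgeR adjusted p = 6.14e-13). Ror2 was lower in the E16.5 FP, at 465 ± 72.9 normalized counts, than in the E13.5 MM, at 1049 ± 96.3 (SD, n = 5 each), with a log2 fold change of -1.17 (SE 0.114, edgeR adjusted p = 3.13e-09).

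Genes that canonical Wnt signaling switches on were mostly lower in the fat pad precursor than in mammary mesenchyme of either stage. Of 11 feedback and target genes tested, 9 fell and none rose in the E16.5 FP, against E16.5 MM and likewise against E13.5 MM, where 7.34% and 11.2% of all genes fell. Against E13.5 SM, 8 rose and 1 fell in the E13.5 MM, beside 14.5% and 15.6% of all genes, and against E13.5 VM, 2 rose and 3 fell there, beside 3.79% and 2.66%. In E16.5 MM against E13.5 SM, 6 rose and 0 fell, beside 18.5% and 16.6% of all genes. In E16.5 FP against E13.5 SM, 1 rose and 5 fell, beside 20.2% and 19.3%. Axin2 averaged 232 ± 24 normalized counts in the E16.5 FP, 1502 ± 200 in the E16.5 MM, 2920 ± 219 in the E13.5 MM, 5282 ± 564 in the E13.5 VM and 1148 ± 197 in the E13.5 SM (SD, n = 5 each). Its log2 fold change was -2.31 in the E16.5 FP against E13.5 SM (SE 0.114, edgeR adjusted p = 3.87e-15) and 1.35 in the E13.5 MM against E13.5 SM (SE 0.106, edgeR adjusted p = 5.32e-11). In E16.5 MM against E13.5 SM it was 0.39 (SE 0.105, edgeR adjusted p = 0.00233) and was not called. Lef1, a factor that carries beta-catenin to DNA, averaged 61.1 ± 10.9 normalized counts in the E16.5 FP and 1138 ± 84.1 in the E13.5 MM (SD, n = 5 each). Of 12 secreted Wnt antagonists tested, 6 rose and 4 fell in the E13.5 MM against E13.5 SM, beside 14.5% and 15.6% of all genes, and 2 rose and 8 fell in the E16.5 FP against E13.5 MM, beside 14.3% and 11.2%. Wif1, which binds Wnt proteins outside the cell, averaged 16.6 ± 9.06 normalized counts in the E16.5 FP and 750 ± 138 in the E13.5 MM (SD, n = 5 each).

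The patterns of the abundant ligands were each close to those of other genes. Over the 25 samples and 12674 other genes with a mean above 100 normalized counts, the log2 CPM of Wnt5a was most like that of Cbln2 (r = 0.984), Pappa2 (r = 0.980) and Emp2 (r = 0.977). Wnt11 was most like Tmem132c (r = 0.987), Crabp1 (r = 0.985) and Hunk (r = 0.978), and Wnt2b like Mn1 (r = 0.980), Mgat3 (r = 0.978) and Usp22 (r = 0.974). Wnt2 was most like Hpse (r = 0.945), Pld2 (r = 0.940) and Tcaf2 (r = 0.940), and Wnt9a like Cbln4 (r = 0.902), Ralgds (r = 0.883) and Gm11627 (r = 0.869). The samples fall into 5 tissues and share their libraries, so these values mostly describe the order of the tissues and carry no test.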

How the data were processed

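RNA from 25 samples of 5 embryonic mesenchymes was sequenced. The deposited table holds estimated counts per gene that the authors made with Salmon 0.99.0 on mm10 after FastQC 0.11.8, MultiQC 1.9, Trimmomatic 0.39 and SortMeRNA. The annotation release, the strand setting and how counts were made whole are not given in the sources used here. Reads shared by similar sequences or by overlapping genes are split by estimation. Going by 31-base words shared between GENCODE M21 transcripts, this touches Wnt4, Wnt5a, Wnt11 and, for 0.253% of its words, Wnt16.

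Gene IDs were matched to GENCODE M21 (GRCm38). The 446 genes without a symbol held 0.1% of counts. No library pair was identical. Groups came from the sample labels. edgeR 4.0.16 in R 4.3.3 (filterByExpr, TMM, quasi-likelihood F-test, 1 mean per tissue, 20 residual degrees of freedom, common dispersion 0.0433) tested 17657 genes, and normalized counts were scaled to a mean library of 26524288. The SE of a log2 fold change is its size over the square root of F. The thresholds on p, fold and count follow the study, whose methods do not say over which samples the mean count was taken. The higher tissue was used here. Plots were drawn with matplotlib 3.10.9, and tables joined with pandas 2.3.3 and numpy 2.4.6, in Python 3.11.15.

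All 10 ligands are named in the 7 comparisons. For other lists, up to 3 called genes with the largest fold change were named per comparison. Axin2 is also given elsewhere as the usual canonical readout. The ligands and lists were chosen with earlier results of these data known. A simulation of the E13.5 MM and E13.5 SM libraries (15922 genes), with 50 genes changed at each fold, called 48% of genes at a true fold of 1.5, 88% at 2, 96% at 3, 84% at 0.5 and 0.00636% of 15722 unchanged genes. It fitted these tissues alone, and far fewer genes changed in it than the 30.1% called in the main fit. The changed genes were drawn from those with a mean count above 50. The unchanged genes were all others that passed the expression filter, with no such floor. The rates of this simulation therefore need not hold for the main fit or for ligands with low counts. Alternatives were DESeq2 size factors, DESeq2 1.42.0, no expression filter, a mean over both tissues, only the tissues compared, a replicate block, the library size of all counts (chosen after seeing the data) and leaving out each library.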

Additional observations from a re-analysis of the deposited data

Results flagged for a closer look

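In 50 groups of 5 samples, 1 per ligand and tissue, 5 held a sample far from the other 4 by Dixon's criterion, which chance alone meets in about 1 group in 20. Wnt4 had 2623 normalized counts in E13.5 MM replicate 3, where the nearest sample had 1671, and 1756 in E13.5 VM replicate 1, where the nearest had 1034. Wnt2b had 237 normalized counts in E16.5 FP replicate 2, where the nearest had 180, and 636 in E13.5 VM replicate 4, where the nearest had 517. Wnt10b had 35.4 normalized counts in E13.5 MM replicate 2, where the nearest had 10.2.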

How the results depend on the processing

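Of 35 calls of a ligand in a comparison, 28 were kept under every alternative and 7 were lost under at least 1. Of 1188 ligand values under an alternative, 1149 kept their direction and side of the thresholds, 16 lost a call, 22 gained a call and 1 turned sign: Wnt16 in E13.5 MM against E13.5 VM was 0.05 without E13.5 VM replicate 1 and -0.28 with it, called in neither, and ranged from -0.46 to 0.05 over the libraries left out. The cause was not tested. Leaving out each library in turn gave 4 to 6 ligands called in E16.5 FP against E13.5 SM, 4 to 7 in E16.5 MM against E13.5 SM, 5 to 6 in E13.5 MM against E13.5 SM, 3 to 4 in E13.5 MM against E13.5 VM, 4 to 6 in E16.5 MM against E13.5 MM, 7 to 8 in E16.5 FP against E13.5 MM and 3 to 5 in E16.5 FP against E16.5 MM. With a replicate block the counts were 5, 4, 5, 3, 5, 8 and 4 in that order, and 1 call changed, Wnt5b in E16.5 MM against E13.5 SM (-0.58). The replicate numbers showed no clear pairing of the samples: deviations of 50 same-numbered pairs had a median r of 0.02 (-0.37 to 0.29, 11 over 0.1) and other pairs a median of 0.00. For 6 of 25 samples, the replicate number with the highest mean r in the other tissues was their own. Which samples shared a litter remains unknown. Calls gained and not given above were Wnt5b in E13.5 MM against E13.5 SM without E13.5 SM replicate 1 (0.60), Wnt10b in E16.5 MM against E13.5 SM without E16.5 MM replicate 3 (1.58), Wnt9a in E16.5 MM against E13.5 MM without E13.5 MM replicate 4 (-0.58) or the expression filter (-0.59), and Wnt4 in E13.5 MM against E13.5 VM with DESeq2 (0.65) or the library size of all counts (0.66). Wnt5b in E16.5 FP against E16.5 MM was called without the expression filter (-0.59) and without E16.5 FP replicate 2, 4 or 5 or E16.5 MM replicate 4 (-0.68 to -0.61). Wnt6 was called without E16.5 MM replicate 1, 2 or 3, where its mean passed 50, at 3.34 to 3.37 in E16.5 MM against E13.5 SM and -0.85 to -0.83 in E16.5 FP against E16.5 MM. Low counts limit Wnt6, Wnt10b and Wnt16.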

Other observations

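Other Wnt ligands known from epithelium were low but uneven in the mammary samples. Wnt7b averaged 9.19 normalized counts in the E16.5 FP. The E16.5 MM samples held 44.7, 7.19, 6.01, 22.0 and 45.3, against means of 6.49 in the E13.5 MM, 4.37 in the E13.5 VM and 1.28 in the E13.5 SM. The E16.5 MM samples low in Wnt7b, replicates 2 and 3, were those with the smallest epithelial marker sums, 40.4 and 20.9 CPM. Wnt3 and Wnt7a were highest in E13.5 MM replicate 2 of that tissue, at 17.2 and 18.2 normalized counts, the sample with the most Wnt10b (35.4). In the E16.5 MM, Wnt3 was at 9.17, 0, 8.41, 5.78 and 24.2 and Wnt7a at 3.44, 0, 4.81, 8.09 and 3.02. Wnt10a was there at 35.5, 16.8, 13.2, 15.0 and 29.2. The marker sums were 156, 40.4, 20.9, 80.5 and 124 CPM, an order that none of these ligands kept throughout. Wnt10a averaged 11.6 in the E13.5 VM, at sums of 5.03 to 8.27 CPM, and 6.92 in the E13.5 MM, at 6.66 to 18.9. The part of epithelial RNA in these values was not tested.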
